A study of Mus musculus with 12 samples.

Results

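The core pluripotency genes described here are 9 genes that mouse embryonic stem cells use around the transcription factors encoded by Pou5f1 and Sox2: Pou5f1, Sox2, Sall4, Utf1, Lin28a, Fgf4, Tdgf1, Gdf3 and Fbxo15. They were chosen by name, and every array probe designed to a RefSeq transcript of these symbols was taken, which gave 14 of the 55681 probes on the array. All 9 genes were among the 24457 genes tested. The study hybridised total RNA of mouse embryonic stem cells to 12 Agilent arrays with 1 dye (Cy3), in 4 groups of 3. Of the groups, 2 were Nat1-null, kept in 2i+LIF or in LIF, and 2 were wild type, kept in 2i+LIF or in LIF, all grown in standard stem cell medium on plates coated with gelatin and without a named feeder layer. LIF is a cytokine that holds mouse stem cells undifferentiated, and 2i combines an inhibitor of MEK, which blocks ERK signalling, with an inhibitor of GSK3. Nat1 is taken as the older name of Eif4g2, a translation factor related to eIF4G. The labels name no parent line, clone number, sex or passage, so each genotype may be a single line, and what was removed from the gene is not stated.

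Pou5f1 encodes OCT4, a POU-domain factor that binds DNA side by side with the HMG-box factor SOX2 at composite sites. Together they sustain their own transcription and that of many stem cell genes, among them Fgf4, Utf1 and Fbxo15. FGF4 is secreted by the stem cells and signals through FGF receptors to ERK, which prepares the cells to leave the undifferentiated state, and the MEK inhibitor of 2i acts downstream of it. TDGF1 (Cripto) is a membrane-anchored co-receptor for NODAL, GDF3 is a secreted ligand of the TGF-beta family, and LIN28A is an RNA-binding protein that holds back maturation of let-7 microRNAs.

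Values are log2 signals relative to the 75th percentile of their own array. Differences between groups were tested with limma over all genes, and "adjusted p" is the Benjamini-Hochberg value over all 24457 genes of a comparison, called below 0.05. "Rose" and "fell" are used only of called genes. Levels of different genes come from different probes and are not compared with each other.

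Sall4 and Gdf3 had no promoter entry, and Fbxo15 was left out of this reading by choice. Promoters of the other 6 members were read from RefSeq (GRCm38.p6). Those of the 4 genes that rose both with 2i in wild-type cells and with Nat1 loss in LIF are shown, with that of Lin28a, which fell in both. Each is the 250 bases before an annotated start, read 5′ to 3′ on the gene's strand. Pou5f1 had 2 annotated starts, of which only the first listed was read. Capitals mark exact matches on either strand to the octamer ATGCAAAT or its first 7 bases, the SOX core CATTGT, the GC box GGGCGG, the nuclear receptor half-site AGGTCA, the TATA box TATAAA and the CCAAT box CCAAT. Pou5f1 lies at chr17:35505782-35506031 (+), Sox2 at chr3:34649745-34649994 (+), Fgf4 at chr7:144861136-144861385 (+), Tdgf1 at chr9:110946159-110946408 (-) and Lin28a at chr4:134018817-134019066 (-).
Pou5f1: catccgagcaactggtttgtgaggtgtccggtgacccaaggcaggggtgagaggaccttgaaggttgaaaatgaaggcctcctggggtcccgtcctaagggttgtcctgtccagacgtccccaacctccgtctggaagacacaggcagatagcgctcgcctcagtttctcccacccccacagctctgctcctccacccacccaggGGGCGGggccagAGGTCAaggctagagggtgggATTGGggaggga
Sox2: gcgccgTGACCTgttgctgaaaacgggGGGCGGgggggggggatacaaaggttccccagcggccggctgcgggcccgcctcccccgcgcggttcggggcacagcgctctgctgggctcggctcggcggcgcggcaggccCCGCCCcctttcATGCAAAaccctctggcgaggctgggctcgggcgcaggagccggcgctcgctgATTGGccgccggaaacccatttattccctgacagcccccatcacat
Fgf4: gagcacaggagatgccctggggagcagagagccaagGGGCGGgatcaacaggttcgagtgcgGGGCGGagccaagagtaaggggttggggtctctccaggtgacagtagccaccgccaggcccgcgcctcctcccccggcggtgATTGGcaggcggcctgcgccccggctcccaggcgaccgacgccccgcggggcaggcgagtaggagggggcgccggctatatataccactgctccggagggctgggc
Tdgf1: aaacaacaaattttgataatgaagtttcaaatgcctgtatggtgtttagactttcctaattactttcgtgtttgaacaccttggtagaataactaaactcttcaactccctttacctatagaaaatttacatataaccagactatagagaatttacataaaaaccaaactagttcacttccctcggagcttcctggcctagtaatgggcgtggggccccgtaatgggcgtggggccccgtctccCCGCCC
Lin28a: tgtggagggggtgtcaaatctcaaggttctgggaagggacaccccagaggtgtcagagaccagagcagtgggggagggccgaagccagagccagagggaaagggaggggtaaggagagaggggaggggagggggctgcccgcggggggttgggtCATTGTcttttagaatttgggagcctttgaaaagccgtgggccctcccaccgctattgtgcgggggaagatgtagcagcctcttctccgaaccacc

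The Pou5f1 window held a GC box ending 40 bases before the start, a nuclear receptor half-site ending 28 bases before it and an inverted CCAAT box ending 8 bases before it. The Sox2 window held the 7-base octamer core ATGCAAA, which 4.12% of the 32851 promoters in the table also held, and a pair of GC boxes. A GC box was found in 5 of the 6 members' windows (Pou5f1, Sox2, Utf1, Tdgf1 and Fgf4), against 32.7% of all promoters. The Lin28a window was the member window without one, and it alone held the SOX core, which 10.7% of all promoters held. Unlike the other 5 windows, which adjoin the outer end of their gene, it lay inside the annotated gene (chr4:134003330-134019196). It therefore precedes an internal start, and its letters are not directly comparable with those of the other windows. The CCAAT box stood in the windows of Pou5f1, Sox2 and Fgf4 (33.8% of all promoters) and the half-site in those of Pou5f1 and Sox2 (14.0%). No window of the 6 held the full octamer (1.60% of all promoters) or TATAAA (12.4%). The Tdgf1 window was 42.0% G and C, below the median of all promoters (52.4%), while the other 5 lay between 61.2% and 72.0%. These are matches of letters in a short window, and distal enhancers lie outside it.

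Eif4g2 averaged 1.31 ± 0.10 in Nat1-null cells in 2i+LIF and 1.28 ± 0.04 in Nat1-null cells in LIF, against 4.20 ± 0.10 in wild-type cells in 2i+LIF and 4.49 ± 0.05 in wild-type cells in LIF (SD, n = 3 each). Loss of Nat1 thus came with a 9.28-fold lower signal in LIF and a 7.42-fold lower one in 2i+LIF, in the direction of the labels. The arrays lay on 3 slides: all Nat1-null arrays on one, the wild-type arrays in 2i+LIF on another and those in LIF on the third. Slide therefore cannot be told apart from genotype, nor, in the wild type, from medium, and only 2i in Nat1-null cells was compared within a slide. On that slide all arrays in 2i+LIF lay in row 2. Of those in LIF, replicates 1 and 2 lay in row 1 and replicate 3 in row 2, so row and medium largely coincide there. Between 49.8% and 66.3% of spots were well above background on an array, and the lowest correlation between replicates, across genes, was 0.988. The 14 member probes were well above background and unsaturated on all 12 arrays. Transcripts used as markers of other cell types, some of which stem cells may express themselves, also moved with the groups. The summed linear signal of 10 of 12 trophoblast markers tested was 35.4 to 37.3 in Nat1-null cells in 2i+LIF, 12.4 to 14.3 in Nat1-null cells in LIF, 25.4 to 27.9 in wild-type cells in 2i+LIF and 180 to 204 in wild-type cells in LIF. For 15 of 16 fibroblast and feeder markers, the sum was 194 to 206 in Nat1-null 2i+LIF, 121 to 139 in Nat1-null LIF, 167 to 176 in wild-type 2i+LIF and 409 to 433 in wild-type LIF. All 12 primitive endoderm markers summed to 187 to 220 in Nat1-null 2i+LIF, 172 to 191 in Nat1-null LIF, 105 to 107 in wild-type 2i+LIF and 271 to 309 in wild-type LIF. For 10 of 11 neural ectoderm markers the sum was 5.71 to 7.42 in Nat1-null 2i+LIF, 11.1 to 16.2 in Nat1-null LIF, 12.8 to 13.9 in wild-type 2i+LIF and 32.2 to 33.3 in wild-type LIF. Wild-type LIF was highest in each of the 4 lists, and it was the group in which every tested marker of the 4 lists was well above background on all arrays. A few bright genes carry such linear sums, so counts of called markers are given as well. With Nat1 loss in LIF 1 fibroblast marker rose and 13 fell, and 2 trophoblast markers rose and 8 fell. Of all genes 33.9% were higher and 32.9% lower there. With 2i in wild-type cells 2 fibroblast markers rose and 12 fell, and 3 trophoblast markers rose and 7 fell (35% and 27.2% of all genes). With Nat1 loss in 2i+LIF 4 fibroblast markers rose and 5 fell, and 7 trophoblast markers rose and 1 fell. In that comparison 4 primitive endoderm markers rose and 5 fell (21% and 22.6% of all genes). With Nat1 loss in LIF 3 primitive endoderm markers rose and 6 fell. The rises were Gata6 (2.77), Gata4 (1.47) and Lama1 (1.36). The falls were Dab2 (-3.36), Lamb1 (-2.60), Foxa2 (-2.09), Sox17 (-1.85), Sparc (-0.87) and Col4a1 (-0.42). The part of these transcripts in the differences below was not tested, and fewer cells with a transcript cannot be told apart from less of it in each cell.

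**Figure D1:**
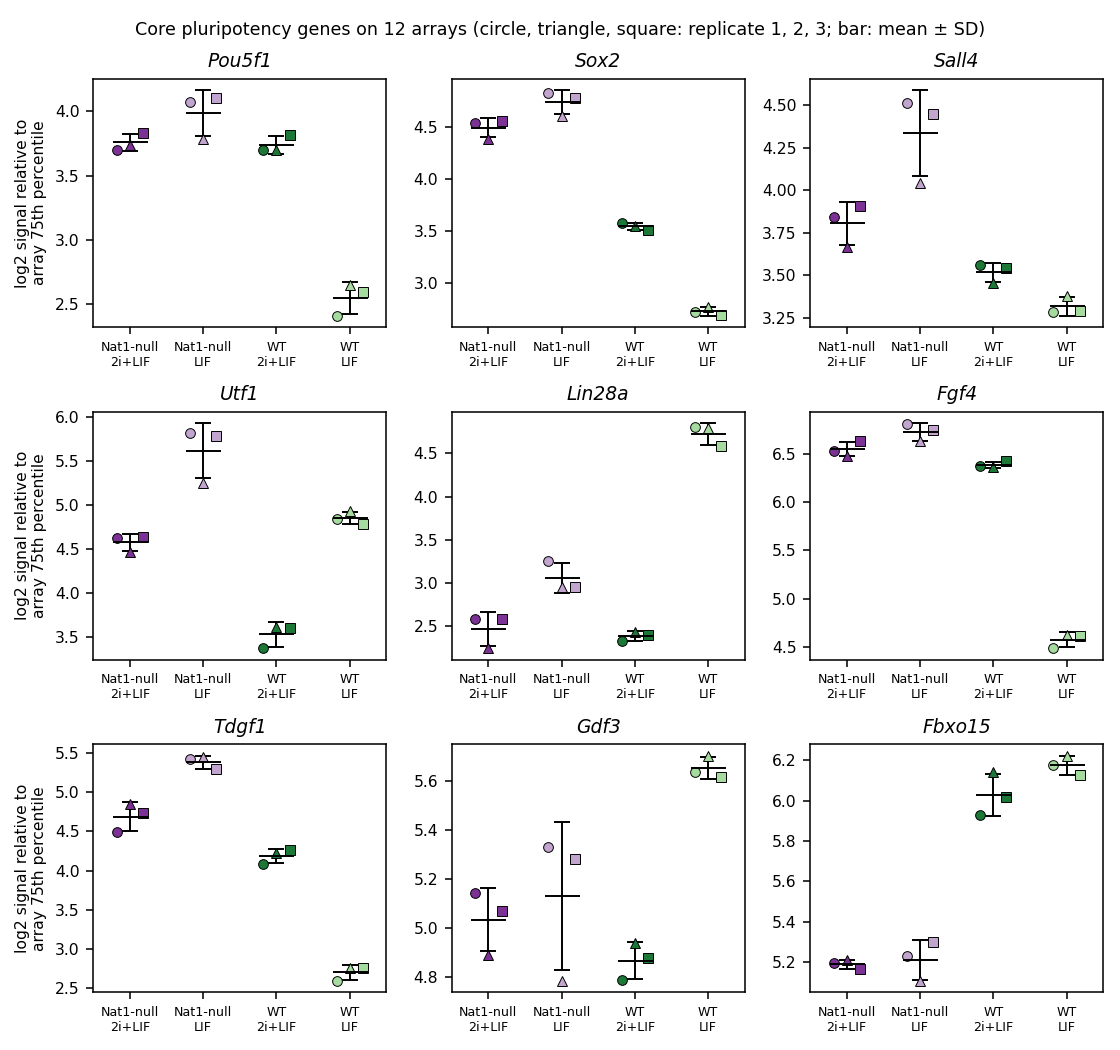
Log2 signal of the 9 genes relative to the 75th percentile of each array, 1 panel per gene with its own y axis; symbols are the 3 replicate arrays of a group and bars the mean ± SD. Pou5f1, Sox2, Fgf4 and Tdgf1 have their lowest group in wild-type cells in LIF (2.55, 2.73, 4.58 and 2.70), Lin28a and Gdf3 their highest (4.73 and 5.65), and Fbxo15 separates by genotype.

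Pou5f1, the OCT4 gene, stood out by its low level in wild-type cells in LIF. Its levels were 3.70, 3.74 and 3.83 in Nat1-null cells in 2i+LIF, 4.07, 3.78 and 4.11 in Nat1-null cells in LIF, 3.70, 3.70 and 3.82 in wild-type cells in 2i+LIF, and 2.41, 2.65 and 2.59 in wild-type cells in LIF. Every array of wild-type cells in LIF lay below the other 9, whose ranges overlapped. It rose by 1.44 with Nat1 loss in LIF (SE 0.0963, limma adjusted p = 6.2e-07, 2.71-fold) and by 1.19 with 2i in wild-type cells (adjusted p = 4.0e-06, 2.28-fold). The genotypes differed by 0.02 in 2i+LIF, with a 95% interval of -0.20 to 0.23 (adjusted p = 0.89). The 2i difference in Nat1-null cells was -0.23 (interval -0.44 to -0.01, adjusted p = 0.090). This value was called with normexp background correction (-0.31, adjusted p = 0.013), quantile normalization (-0.31, 0.012), no scaling (-0.42, 0.0059) and without replicate 2 of Nat1-null cells in LIF (-0.33, 0.0097). The order was Nat1-null LIF, Nat1-null 2i+LIF and wild-type 2i+LIF, whose neighbours were not called apart at the reported settings, and then wild-type LIF.

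Sox2, which encodes the HMG-box partner of OCT4, was graded over all 4 groups. It read 4.54, 4.39 and 4.56 in Nat1-null cells in 2i+LIF, 4.83, 4.61 and 4.79 in Nat1-null cells in LIF, 3.58, 3.55 and 3.51 in wild-type cells in 2i+LIF, and 2.72, 2.77 and 2.69 in wild-type cells in LIF. No array of one group lay within the range of another. It rose with Nat1 loss by 2.01 in LIF (SE 0.0710, limma adjusted p = 9.8e-09, 4.04-fold) and by 0.95 in 2i+LIF (adjusted p = 6.2e-06, 1.94-fold). With 2i it rose by 0.82 in wild-type cells (adjusted p = 6.5e-06) and fell by 0.24 in Nat1-null cells (adjusted p = 0.023). The last call was the least stable: adjusted p was 0.12 with the 6 Nat1-null arrays alone and 0.054 with no filter on dim probes, and it was 0.081 without replicate 1 of Nat1-null cells in LIF, 0.068 without their replicate 3 and 0.077 without replicate 2 of Nat1-null cells in 2i+LIF.

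Sall4 encodes a zinc-finger factor that binds with OCT4 and recruits the NuRD complex. Its levels were 3.84, 3.67 and 3.91 in Nat1-null cells in 2i+LIF, 4.51, 4.04 and 4.45 in Nat1-null cells in LIF, 3.56, 3.45 and 3.54 in wild-type cells in 2i+LIF, and 3.29, 3.38 and 3.29 in wild-type cells in LIF. Only Nat1-null cells in LIF were called apart from their neighbour in the order. Sall4 rose by 1.02 with Nat1 loss in LIF (SE 0.116, limma adjusted p = 2.8e-05, 2.02-fold) and fell by 0.53 with 2i in Nat1-null cells (adjusted p = 0.0058). With the 6 Nat1-null arrays alone the 2i difference had adjusted p = 0.062. The difference was 0.20 with 2i in wild-type cells (interval -0.06 to 0.46, adjusted p = 0.16; -0.37 with no scaling between arrays) and 0.29 with Nat1 loss in 2i+LIF (interval 0.03 to 0.55, adjusted p = 0.069), which was called under 4 alternatives, at 0.51 with no scaling (0.0036).

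Utf1, which encodes a chromatin-associated factor of undifferentiated cells and is a known target of OCT4 and SOX2, separated by both medium and genotype. It was at 4.62, 4.47 and 4.64 in Nat1-null cells in 2i+LIF, 5.82, 5.26 and 5.78 in Nat1-null cells in LIF, 3.37, 3.62 and 3.60 in wild-type cells in 2i+LIF, and 4.84, 4.93 and 4.79 in wild-type cells in LIF. Both genotypes were lower in 2i+LIF, and in both media the Nat1-null cells were higher, with no overlap in any of these pairs. It fell by 1.33 with 2i in wild-type cells (SE 0.141, limma adjusted p = 2.4e-05, 2.51-fold) and by 1.04 with 2i in Nat1-null cells (adjusted p = 3.6e-04). It rose by 0.77 with Nat1 loss in LIF (adjusted p = 7.9e-04) and by 1.05 with Nat1 loss in 2i+LIF (adjusted p = 2.4e-04). Nat1-null cells in 2i+LIF and wild-type cells in LIF, adjacent in the order, differed by -0.28 (interval -0.59 to 0.04, adjusted p = 0.11).

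Fgf4, the FGF ligand gene, followed the same order as Pou5f1. Its levels were 6.53, 6.48 and 6.63 in Nat1-null cells in 2i+LIF, 6.81, 6.63 and 6.74 in Nat1-null cells in LIF, 6.37, 6.36 and 6.43 in wild-type cells in 2i+LIF, and 4.49, 4.63 and 4.62 in wild-type cells in LIF. The 9 arrays outside wild-type LIF spanned 6.36 to 6.81. It rose by 2.15 with Nat1 loss in LIF (SE 0.0673, limma adjusted p = 4.5e-09, 4.44-fold) and by 1.81 with 2i in wild-type cells (adjusted p = 3.3e-08, 3.50-fold). The differences with Nat1 loss in 2i+LIF (0.16, interval 0.01 to 0.31) and with 2i in Nat1-null cells (-0.18, interval -0.33 to -0.03) were not called, at adjusted p = 0.075 and 0.062. Both calls depend on the settings: the 2i value was called under 7 alternatives, at -0.31 with quantile normalization (adjusted p = 0.0011) and -0.37 with no scaling (0.0017), and the Nat1 value under 3, at 0.39 with no scaling (8.8e-04).

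Tdgf1, the NODAL co-receptor gene, had the largest rise of the 9 in Nat1-null cells in LIF. It read 4.49, 4.84 and 4.73 in Nat1-null cells in 2i+LIF, 5.42, 5.44 and 5.29 in Nat1-null cells in LIF, 4.08, 4.22 and 4.26 in wild-type cells in 2i+LIF, and 2.59, 2.76 and 2.76 in wild-type cells in LIF. As for Sox2, no group overlapped another and the order was Nat1-null LIF, Nat1-null 2i+LIF, wild-type 2i+LIF, wild-type LIF. The rise was 2.68 with Nat1 loss in LIF (SE 0.0970, limma adjusted p = 1.1e-08, 6.40-fold), 1.48 with 2i in wild-type cells (adjusted p = 9.6e-07) and 0.50 with Nat1 loss in 2i+LIF (adjusted p = 0.0023). Tdgf1 fell by 0.69 with 2i in Nat1-null cells (adjusted p = 4.4e-04).

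Lin28a, the gene of the let-7 inhibitor, ran opposite to Fgf4 in wild-type cells. Its levels were 2.58, 2.24 and 2.58 in Nat1-null cells in 2i+LIF, 3.25, 2.95 and 2.96 in Nat1-null cells in LIF, 2.33, 2.43 and 2.39 in wild-type cells in 2i+LIF, and 4.81, 4.79 and 4.58 in wild-type cells in LIF. The highest group was wild-type LIF, Nat1-null cells in LIF came next without overlap, and both groups in 2i+LIF overlapped at the bottom. It fell by 2.34 with 2i in wild-type cells (SE 0.116, limma adjusted p = 1.7e-07, 5.07-fold), by 1.68 with Nat1 loss in LIF (adjusted p = 7.8e-07, 3.19-fold) and by 0.59 with 2i in Nat1-null cells (adjusted p = 0.0033). In 2i+LIF the genotypes differed by 0.08 (interval -0.18 to 0.34, adjusted p = 0.61), and by 0.30 with no scaling (adjusted p = 0.029).

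Gdf3, the TGF-beta family ligand gene, was highest in wild-type cells in LIF. By its brighter probe it was at 5.14, 4.89 and 5.07 in Nat1-null cells in 2i+LIF, 5.33, 4.78 and 5.28 in Nat1-null cells in LIF, 4.79, 4.94 and 4.88 in wild-type cells in 2i+LIF, and 5.64, 5.70 and 5.62 in wild-type cells in LIF. The last group stood above the others, which overlapped. It fell by 0.78 with 2i in wild-type cells (SE 0.132, limma adjusted p = 5.4e-04) and by 0.52 with Nat1 loss in LIF (adjusted p = 0.0058). The dimmer Gdf3 probe showed neither fall, with differences of 0.06 (adjusted p = 0.80 over all probes) and 0.13 (adjusted p = 0.57), so the Gdf3 calls rest on 1 probe.

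Fbxo15 encodes an F-box protein of SCF ubiquitin ligases and is a classical reporter gene of mouse stem cells. It was at 5.20, 5.21 and 5.16 in Nat1-null cells in 2i+LIF, 5.23, 5.11 and 5.30 in Nat1-null cells in LIF, 5.93, 6.14 and 6.02 in wild-type cells in 2i+LIF, and 6.18, 6.22 and 6.12 in wild-type cells in LIF. The 6 Nat1-null arrays lay below all 6 wild-type arrays, and media overlapped within each genotype. It fell by 0.96 with Nat1 loss in LIF (SE 0.0690, limma adjusted p = 9.8e-07, 1.95-fold) and by 0.84 with Nat1 loss in 2i+LIF (adjusted p = 1.1e-05, 1.79-fold). With 2i the difference was -0.15 in wild-type cells (interval -0.30 to 0.01, adjusted p = 0.090) and -0.02 in Nat1-null cells (interval -0.18 to 0.13, adjusted p = 0.84). The wild-type value was called as a fall with quantile normalization (-0.34, adjusted p = 4.6e-04), with no scaling between arrays (-0.71, adjusted p = 2.9e-05) and without replicate 2 of wild-type cells in 2i+LIF (-0.20, adjusted p = 0.035), so its place on either side of the threshold depends on these choices.

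**Figure D2:**
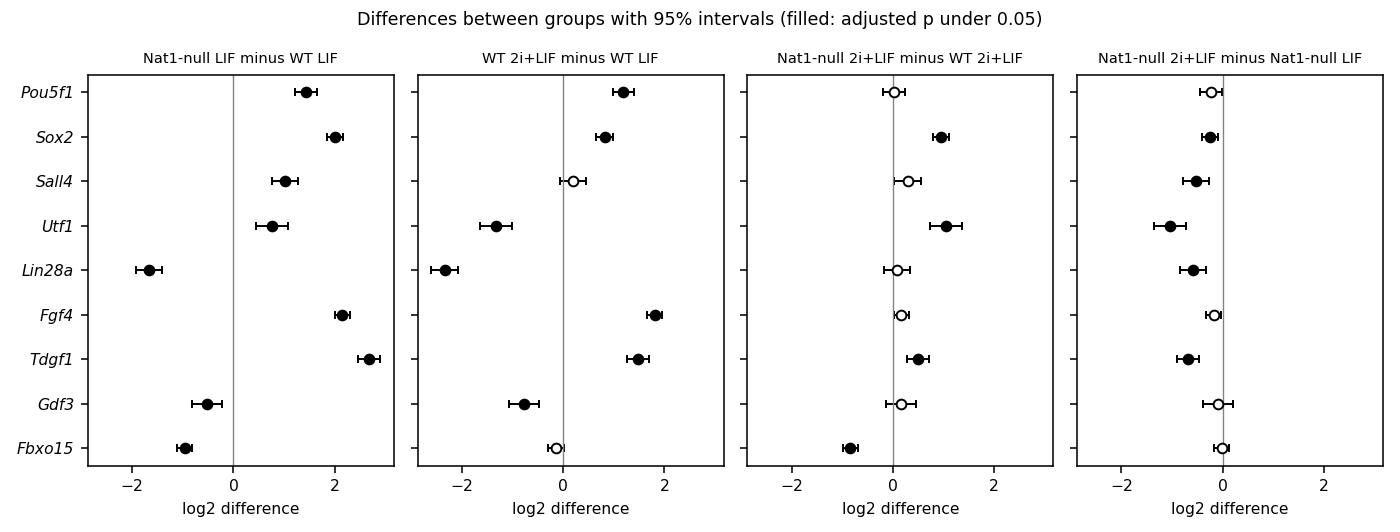
Log2 differences of the 9 genes in 4 comparisons, each group named first minus the group named second; points are limma estimates, bars 95% intervals, and filled points passed adjusted p under 0.05. All 9 points are filled for Nat1 loss in LIF and 4 for Nat1 loss in 2i+LIF.

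With Nat1 loss in LIF all 9 genes were called, 6 higher and 3 lower (Lin28a, Gdf3 and Fbxo15), where 66.8% of all genes tested were called, 33.9% higher and 32.9% lower. Differences of at least 2-fold were reached upward by 5 of the 9 (Pou5f1, Sox2, Sall4, Fgf4 and Tdgf1) against 9.89% of all genes, and downward by Lin28a against 16.1%. Sall4 was just past this threshold (1.02), with 0.76 and 0.89 by its other probes. When single arrays were left out it ranged from 0.93 to 1.16. With 2i in wild-type cells 4 genes were higher and 3 lower, where 62.2% of all genes were called. The 4 were Pou5f1, Sox2, Fgf4 and Tdgf1 (35% of all genes higher) and the 3 were Utf1, Lin28a and Gdf3 (27.2% lower). Both comparisons use the same 3 arrays of wild-type cells in LIF. In 2i+LIF, 4 genes were called with Nat1 loss: Sox2, Utf1 and Tdgf1 were higher (21% of all genes) and Fbxo15 lower (22.6%), where 43.6% of all genes were called. With no scaling between arrays this count was 8. Calls over all 24457 genes then numbered 13040, against 10664 as reported, and the median of all genes in that comparison was 0.22. In Nat1-null cells, 5 genes were called with 2i: Sox2, Sall4, Utf1, Lin28a and Tdgf1 fell and none of the 9 rose, where 37.1% of all genes were called, 21.4% higher and 15.8% lower. The median difference of the 9 genes was 1.02 with Nat1 loss in LIF, 0.20 with 2i in wild-type cells, 0.17 with Nat1 loss in 2i+LIF and -0.24 with 2i in Nat1-null cells. The medians of all genes in those comparisons lay between -0.01 and 0.06.

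Nat1 loss alone and 2i alone were also set against each other directly. Nat1-null cells in LIF, against wild-type cells in 2i+LIF, were higher in 6 of the 9 genes and lower in Fbxo15 (-0.82), or 7 of 9 where 51.9% of all genes were called, 21.9% higher and 30% lower. The 6 were Utf1 (2.09), Sox2 (1.20), Tdgf1 (1.19), Sall4 (0.82), Lin28a (0.67) and Fgf4 (0.34). Pou5f1 differed by 0.25 (interval 0.03 to 0.46, limma adjusted p = 0.053) and Gdf3 by 0.26 (adjusted p = 0.12). Pou5f1 was called under 7 alternatives, at 0.66 with no scaling (adjusted p = 1.6e-04), and Gdf3 under 3, at 0.68 with no scaling (8.1e-04) and 0.44 without replicate 2 of Nat1-null cells in LIF (0.0016). Nat1-null cells in 2i+LIF, against wild-type cells in LIF, differed in 8 of the 9 genes where 69.5% of all genes were called, with Utf1 (-0.28, adjusted p = 0.11) as the exception. Utf1 was called with quantile normalization (-0.45, adjusted p = 0.0053), with no scaling (-0.62, 0.0015) and without replicate 2 of Nat1-null cells in LIF (0.013), while Sall4 was not called with no scaling (0.14, 0.27) nor Gdf3 with the mean of its probes (-0.24, 0.20).

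The 2i difference itself depended on genotype for 7 of the 9 genes, where 49.7% of all genes passed the interaction test, 23.6% positive and 26.2% negative. The interaction is the 2i difference in Nat1-null cells minus that in wild-type cells. It was -2.18 for Tdgf1 (SE 0.137, limma adjusted p = 1.5e-06), -1.99 for Fgf4 (2.9e-07 by the same measure), -1.42 for Pou5f1 (2.2e-05), -1.06 for Sox2 (2.0e-05) and -0.73 for Sall4 (0.0044), which was -0.35 and not called with no scaling (0.082). It was positive for Lin28a at 1.75 (1.9e-05) and for Gdf3 at 0.69 (0.012). The dimmer Gdf3 probe gave -0.05 (limma adjusted p = 0.89 over all probes), so the Gdf3 interaction rests on 1 probe. In each of these 7 genes, by its brightest probe, the 2i difference was nearer to 0, or of the other sign, in Nat1-null cells. For Utf1 (0.28, interval -0.16 to 0.73, adjusted p = 0.27) and Fbxo15 (0.13, interval -0.09 to 0.34, adjusted p = 0.32) the interaction was not called. With no scaling both were called, Utf1 at 0.66 (adjusted p = 0.011) and Fbxo15 at 0.50 (0.0048), and Fbxo15 was also called with quantile normalization (0.23, 0.032). Nat1-null cells in 2i+LIF were 1.97 above wild-type cells in LIF for Fgf4, where the differences with Nat1 loss alone and with 2i alone add up to 3.96. For Lin28a the combined difference was -2.26 and the sum -4.02, and for Utf1 they were -0.28 and -0.56.

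**Figure D3:**
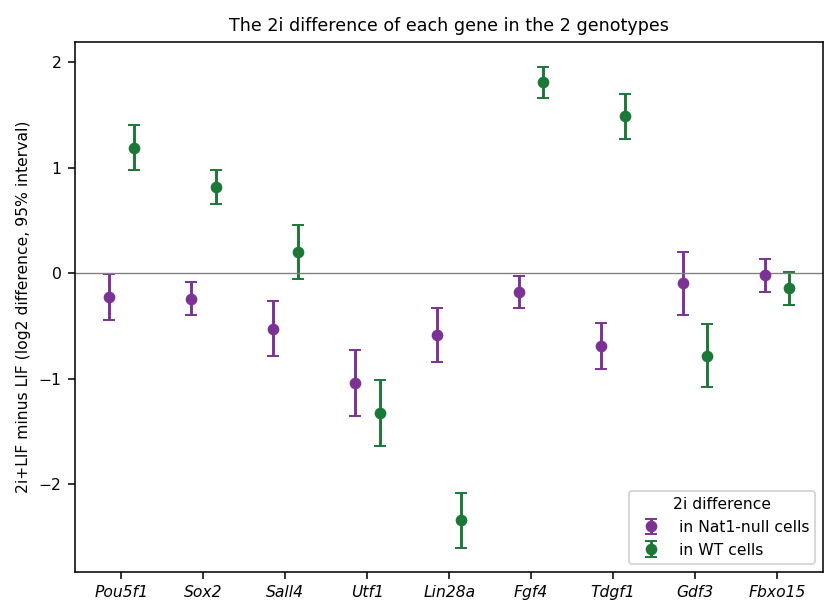
The 2i difference (2i+LIF minus LIF, log2) of each gene in Nat1-null cells (left point) and in wild-type cells (right point), with 95% limma intervals. The intervals of both genotypes overlap for Utf1 and Fbxo15 and are apart for the other 7 genes.

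The genes Tdgf1, Sall4 and Gdf3 had several probes, and here each probe was tested as its own feature over 33286 probes, of which 65.5% were called with Nat1 loss in LIF, 60.9% with 2i in wild-type cells, 42% with Nat1 loss in 2i+LIF and 35.2% with 2i in Nat1-null cells. The 3 Tdgf1 probes were called in the same direction in all 4 comparisons. In LIF they rose with Nat1 loss by 2.68, 2.86 and 1.65, from the brightest to the dimmest, and with 2i in wild-type cells by 1.48, 1.55 and 0.70. The 3 Sall4 probes rose with Nat1 loss in LIF by 1.02, 0.76 and 0.89. They differed with 2i in wild-type cells, at 0.20, 0.24 and -0.23, none of them called (limma adjusted p = 0.16, 0.076 and 0.083). For 2i in Nat1-null cells the Sall4 probes gave -0.53, -0.24 and -0.91, and the middle one was not called (adjusted p = 0.10). Of the 2 Gdf3 probes the dimmer was called in none of the 4 comparisons, and its levels were 1.94 ± 0.17 in Nat1-null cells in 2i+LIF, 1.93 ± 0.46 in Nat1-null cells in LIF, 1.87 ± 0.01 in wild-type cells in 2i+LIF and 1.80 ± 0.06 in wild-type cells in LIF. The positions of the probes in the transcripts were not analysed here.

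**Figure D4:**
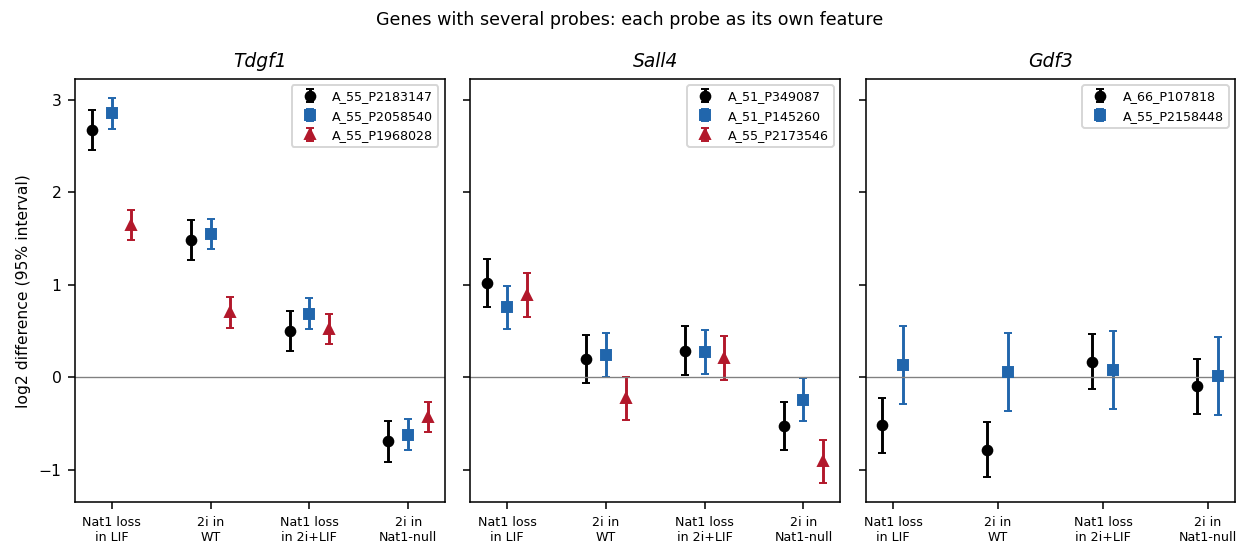
Log2 differences of each probe of Tdgf1, Sall4 and Gdf3 in 4 comparisons, with 95% limma intervals; the legend names the probes from the brightest down. The Tdgf1 probes share their signs, and the 2 Gdf3 probes part in the first 2 comparisons (-0.52 and 0.13, then -0.78 and 0.06).

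Likeness to Pou5f1 and Sox2 was ranked over the 12 arrays among 4293 genes that were bright on all arrays and spanned at least 1 on the log2 scale between groups. The 12 points share 4 group levels, so r describes the group pattern. Outside the 9 genes, the patterns most like Pou5f1 were those of Dennd2c (r = 0.995), Pou5f1-rs4 (0.992), Kbtbd11 (0.991), Mras (0.991) and Pcolce (0.991). Pou5f1-rs4 is a related copy of Pou5f1, and each of the 2 probes may bind transcripts of both. Fgf4 ranked at 5 with r = 0.991, Tdgf1 at 325 (0.944) and Sox2 at 798 (0.878), while Lin28a ran the other way (-0.876) and Utf1 stood apart (0.02). Among the patterns most like Sox2 were those of Mapt (0.998), Tcf20 (0.997), Ppfia3 (0.996) and 2210417A02Rik (0.996), and Tdgf1 was the nearest member (0.956, rank 321). Pou5f1 itself ranked at 873 for likeness to Sox2.

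Other genes of the pluripotency network were a list of 30, all tested. Its counts and those of the following lists stand beside the shares of all genes, which were 33.9% higher and 32.9% lower with Nat1 loss in LIF, 35% higher and 27.2% lower with 2i in wild-type cells, 21% higher and 22.6% lower with Nat1 loss in 2i+LIF, and 21.4% higher and 15.8% lower with 2i in Nat1-null cells. In LIF, 23 were higher and 2 lower with Nat1 loss, led by Tbx3 (3.27) and Tfcp2l1 (3.05), while Dppa3, a maternal-effect gene, fell by 6.68 and Cdh1, E-cadherin, by 0.23. With 2i in wild-type cells 16 were higher and 4 lower, with Tfcp2l1 (3.90) and Tbx3 (2.60) at the top and Dppa3 (-3.98) and Dppa2 (-1.44) at the bottom. In 2i+LIF 13 were higher and 3 lower with Nat1 loss, among them Foxd3 (2.45), Klf5 (1.10), Nanog (-0.42) and Phc1 (-0.34). With 2i in Nat1-null cells 7 were higher, among them Dppa3 (2.92) and Tfcp2l1 (1.58), and 10 lower, among them Phc1 (-1.01) and Nr0b1 (-0.77). The medians were 1.03, 0.44, 0.23 and -0.24 in these 4 comparisons, near those of the 9 genes, with the all-gene medians given above. The interaction was called for 20 of the 30 (49.7% of all genes), 18 of them negative (26.2%), including Esrrb (-2.51) and Tbx3 (-2.48). Counts of these and the following lists depend on the scaling: with none, the median of all genes moved to -0.50 with 2i in wild-type cells, and 15 of the 30 were then called lower.

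POU and SOX relatives of the 2 core factors did not move as a block. With Nat1 loss in LIF 6 of 14 tested rose and 6 fell. Among those bright on all 12 arrays, Sox12 (1.49) and Sox21 (1.46) were highest, and Sox3 (-4.01) and Pou3f1 (-3.17) lowest. Pou3f1 encodes OCT6, the POU factor of the later epiblast. It averaged -1.26 in Nat1-null cells in 2i+LIF, -0.55 in Nat1-null cells in LIF, -1.73 in wild-type cells in 2i+LIF and 2.62 in wild-type cells in LIF, the opposite of Pou5f1 in its extreme group. With 2i, 4 of the 14 rose and 8 fell in wild-type cells, Pou3f1 with -4.35, and none rose and 8 fell in Nat1-null cells, among them Sox21 by 2.32 and Sox1 by 1.52. In 2i+LIF 4 rose and 6 fell with Nat1 loss, with Sox15 at 1.24 and Sox4 at -2.47.

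FGF4 acts through FGF receptors with heparan sulfate as co-receptor. Of 17 such genes tested, 6 rose and 6 fell with Nat1 loss in LIF, 5 rose and 4 fell with 2i in wild-type cells, 8 rose and 3 fell with Nat1 loss in 2i+LIF, and 7 rose and 2 fell with 2i in Nat1-null cells. The receptor gene Fgfr3 rose by 2.32 with Nat1 loss in LIF and by 2.39 in 2i+LIF, and Fgfr2 fell by 1.38 and 0.58 in the same comparisons. Fgfr4 rose by 1.49 with 2i in wild-type cells. Sdc4, a heparan sulfate proteoglycan gene, fell by 1.66 with Nat1 loss in LIF and rose by 1.76 with 2i in Nat1-null cells.

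Genes that work with TDGF1 and GDF3 in NODAL signalling, 17 tested, were also mixed: 6 rose and 7 fell with Nat1 loss in LIF, 7 rose and 6 fell with 2i in wild-type cells, 9 rose and 4 fell with Nat1 loss in 2i+LIF, and 3 rose and 3 fell with 2i in Nat1-null cells. Pcsk6, which encodes a proprotein convertase that cleaves NODAL precursors, rose with Tdgf1, by 2.80 with Nat1 loss in LIF and by 2.58 with 2i in wild-type cells. Smad7, an inhibitory SMAD gene, rose by 2.79 and 1.39. The NODAL antagonist gene Lefty1 (-2.94 and -2.78) and Foxh1, the gene of a nuclear partner of SMAD2 (-1.55 and -1.58), fell in both. Lefty2, the paralog of Lefty1, was not called with Nat1 loss in LIF (-0.33, limma adjusted p = 0.13) and rose by 1.05 with Nat1 loss in 2i+LIF. Nodal itself averaged 3.09 in Nat1-null cells in 2i+LIF, 2.99 in Nat1-null cells in LIF, 3.50 in wild-type cells in 2i+LIF and 3.37 in wild-type cells in LIF, and was named for its place as the ligand after its values were seen.

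Of 16 genes of the LIN28 and let-7 pathway, 8 rose and 5 fell with Nat1 loss in LIF, the same counts as with 2i in wild-type cells, and 6 rose and 4 fell with Nat1 loss in 2i+LIF. Lin28b, the paralog of Lin28a, differed from it in its groups. It averaged 0.00 in Nat1-null cells in 2i+LIF, 0.72 in Nat1-null cells in LIF, 2.89 in wild-type cells in 2i+LIF and 3.82 in wild-type cells in LIF, and so was low by genotype, where Lin28a was also low in wild-type cells in 2i+LIF. Lin28b fell by 3.10 with Nat1 loss in LIF (limma adjusted p = 7.4e-08), by 2.89 with Nat1 loss in 2i+LIF (adjusted p = 7.2e-07), by 0.93 with 2i in wild-type cells and by 0.72 with 2i in Nat1-null cells. Trim71, a let-7 target whose product represses mRNAs, rose by 1.34 and 1.26 with Nat1 loss in LIF and in 2i+LIF, and Hmga2, another let-7 target, fell by 2.04 with Nat1 loss in LIF and rose by 1.74 with 2i in Nat1-null cells.

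Among 14 Spalt and NuRD genes, the paralog Sall2 was at -3.75 with Nat1 loss in LIF, where Sall4 rose, at -2.35 with 2i in wild-type cells and at -1.81 with Nat1 loss in 2i+LIF, a call each time. Sall1 rose by 0.93 with Nat1 loss in LIF and fell by 0.59 with 2i in Nat1-null cells, as Sall4 did. In this list 7 rose and 3 fell with Nat1 loss in LIF, 6 rose and 3 fell with 2i in wild-type cells, 5 rose and 3 fell with Nat1 loss in 2i+LIF, and 2 rose and 3 fell with 2i in Nat1-null cells. The core of SCF ligases, into which FBXO15 fits, had 10 genes tested. With Nat1 loss 5 rose and 3 fell in LIF, Cul1 by 0.65 and Skp1 by 0.64, and 5 rose and none fell in 2i+LIF, while Fbxo15 fell in both. With 2i, 3 rose and 4 fell in wild-type cells and 5 rose and 1 fell in Nat1-null cells.

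**Figure D5:**
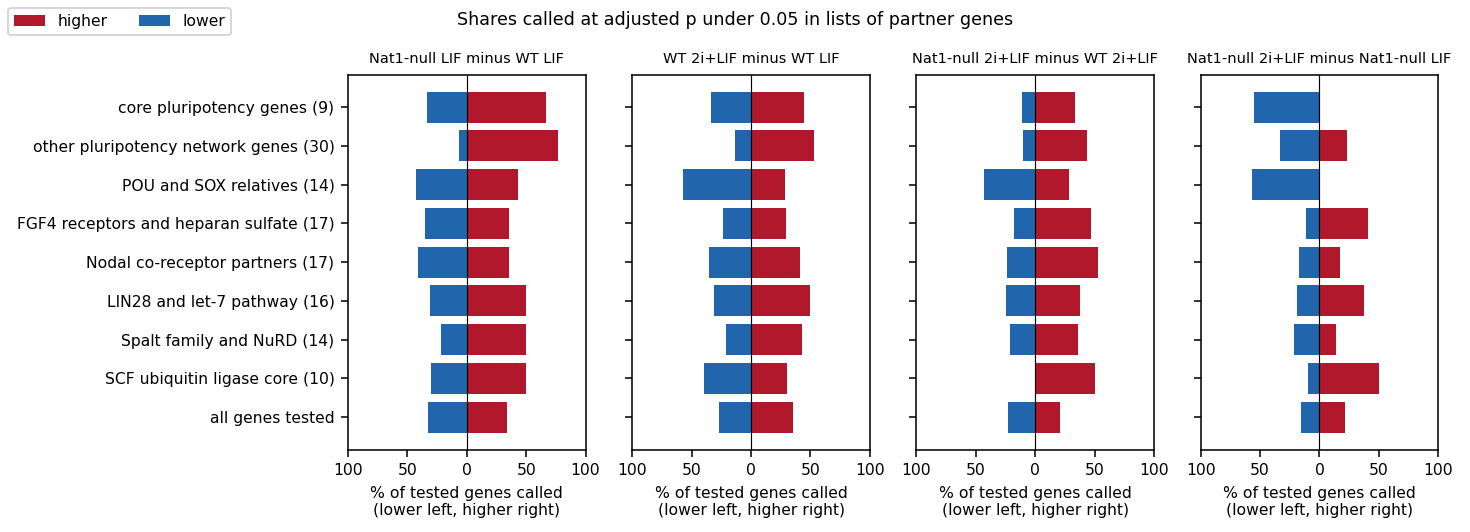
Share of the tested genes called higher (right of 0) and lower (left of 0) at adjusted p under 0.05, for the 9 core genes, 7 lists of partner genes and all genes tested, in 4 comparisons. In the other pluripotency network genes 23 of 30 are higher with Nat1 loss in LIF, while the partner lists of FGF4, NODAL and LIN28 hold both directions.

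The replicates of Nat1-null cells in LIF were the least alike, with a median SD over the 9 of 0.0965 in Nat1-null cells in 2i+LIF, 0.173 in Nat1-null cells in LIF, 0.0665 in wild-type cells in 2i+LIF and 0.0736 in wild-type cells in LIF. Over all genes the median SD was also largest in that group, at 0.124 in Nat1-null cells in 2i+LIF, 0.156 in Nat1-null cells in LIF, 0.0887 in wild-type cells in 2i+LIF and 0.0711 in wild-type cells in LIF. Replicate 2 of Nat1-null cells in LIF was the lowest of its 3 for 8 of the 9 genes, all but Tdgf1, while it was lowest for 44.3% of all genes. Its values for Utf1 (5.26 beside 5.82 and 5.78), Gdf3 (4.78 beside 5.33 and 5.28) and Sall4 (4.04 beside 4.51 and 4.45) were farthest from the other replicates. Without it, 8 of the 9 genes were called with 2i in Nat1-null cells, against 5 of 9 with all arrays. Calls over all 24457 genes also rose in that comparison, from 9077 with all arrays to 10119 without it.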

How the data were processed

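Per the file headers, the 12 scanner files carry intensity values from Agilent Feature Extraction 10.7.3.1, with background removed array by array and no scaling across arrays. A series table of the authors gives log2 processed signals with the 75th percentile of every array at 0, which correlated at 1 with the values computed here. Probes were named through RefSeq accessions (GRCm38.p6), and 27656 of 55681 probes received a symbol.

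Here control spots and outlier spots were left out, processed signals were taken to log2, and each array's 75th percentile was taken off. Of 54229 probes with a value on all 12 arrays, 33286 passed the filter, being well above background throughout 1 or more groups. The brightest probe stood for each of 24457 genes. limma 3.58.1 in R 4.3.3 fitted 4 group means with moderated variances, and its two-sided p-values were adjusted by Benjamini and Hochberg's method across all genes. The procedure was tested on simulated data. Tables and figures used Python 3.11.15, pandas 2.3.3 and matplotlib 3.10.9. The number of arrays limits the precision.

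The members, the lists of partner and marker genes and the tests were chosen with earlier results of these data known. Named are all members, Eif4g2, of each list the 2 largest called rises and falls among genes bright on all 12 arrays, and the 5 genes most like Pou5f1 and Sox2, of which 1 is not reported here. Nodal and the chromosomal neighbours described at the end were picked with their values in view. The labels do not say that replicates came from separate cultures, so the spread behind the p-values may be technical. Same-numbered arrays were little alike in most pairs: the residual correlation passed 0.1 in 1 of 18 same-numbered pairs. That pair was replicate 2 of Nat1-null cells in LIF and in 2i+LIF (r = 0.30), which share a slide. The titles put the number on the cells, and whether same-numbered samples share a line or culture is not stated. Alternatives were another background correction, other scalings, other filters, the mean of a gene's probes, the authors' table, a replicate block, a mean-variance trend, fits on subsets of the arrays and leaving out each array.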

Additional observations from a re-analysis of the deposited data

Results flagged for a closer look

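The 2i difference of 7 genes differed between Nat1-null and wild-type cells by limma's interaction test, given as Nat1-null minus wild type on the log2 scale. It was -2.18 for Tdgf1, -1.99 for Fgf4, -1.42 for Pou5f1, -1.06 for Sox2 and -0.73 for Sall4, and it was 1.75 for Lin28a and 0.69 for Gdf3. For Tdgf1, Sox2 and Sall4 the 2i difference in Nat1-null cells was a called fall (-0.69, -0.24 and -0.53), where the difference in wild-type cells was 1.48, 0.82 and 0.20. For Lin28a both were falls, with -0.59 in Nat1-null cells and -2.34 in wild-type cells. The Sall4 value was -0.35 (adjusted p = 0.082) with no scaling between arrays. The Gdf3 value was 0.32 (adjusted p = 0.26) with the mean of its probes. The wild-type side of the interaction lies across slides, and slide and medium cannot be told apart there.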

How the results depend on the processing

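With no scaling between arrays, Nat1 loss in 2i+LIF gave 13040 calls over all genes, against 10664 as reported. The number of the 9 genes called there was 8, against 4 as reported. With 2i in Nat1-null cells it was 3 with only the 6 Nat1-null arrays, against 5 as reported, and 3 within row 2 of the slide (a setting chosen after seeing the data, in which the LIF arm is a single array assumed to vary like the other groups, so that it shows nothing about stability), and 4 to 8 when single arrays were left out, with 8 without Nat1-null LIF replicate 2. Over all genes, 2i in Nat1-null cells gave 4845 calls with only those 6 arrays, against 9077, where fewer arrays estimate the spread, and 7334 to 10119 when single arrays were left out. With no scaling, Sall4 with 2i in wild-type cells was -0.37 (limma adjusted p = 0.013). Pou5f1 with Nat1 loss in 2i+LIF, near 0 as reported, was -0.015 with normexp background correction, -0.063 with quantile normalization, and -0.0171 to 0.058 when single arrays were left out (-0.00110 without wild-type 2i+LIF replicate 1, -0.0171 without Nat1-null 2i+LIF replicate 3). With 2i in Nat1-null cells, leaving out single arrays gave Gdf3 -0.27 to 0.0018 (positive without Nat1-null LIF replicate 1) and Fbxo15 -0.074 to 0.022 (positive without Nat1-null LIF replicate 3). When probes of 1 gene were averaged, Gdf3 was -0.36 with 2i in wild-type cells (adjusted p = 0.068) and -0.19 with Nat1 loss in LIF (0.29). With no scaling, 12.8% of called genes were higher with 2i in wild-type cells (56.3% as reported), 39.3% with Nat1 loss in LIF (50.7%), 75.9% with Nat1 loss in 2i+LIF (48.1%) and 22.1% with 2i in Nat1-null cells (57.5%). Apart from scaling, the causes were not tested. A replicate block was fitted although only 1 of 18 same-numbered pairs had a residual correlation above 0.1. It left the counts of the 9 genes at 7, 9, 4 and 5 with 2i in wild-type cells, Nat1 loss in LIF, Nat1 loss in 2i+LIF and 2i in Nat1-null cells. Over all genes it gave 15143, 16225, 10457 and 8787 calls in the same order.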

Other observations

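The nearest tested protein-coding gene on each side of the 9 genes was also read, 18 neighbours in all. Lrrc2, next to Tdgf1, had differences of 2.52 with Nat1 loss in LIF, 1.08 with 2i in wild-type cells, 0.60 with Nat1 loss in 2i+LIF and -0.84 with 2i in Nat1-null cells, all called by limma, where Tdgf1 had 2.68, 1.48, 0.50 and -0.69. Kndc1, next to Utf1, fell with 2i in both genotypes, by 2.12 in Nat1-null cells and by 2.28 in wild-type cells. Fgf3, a second FGF ligand gene next to Fgf4, rose by 3.21 with Nat1 loss in LIF and by 2.48 with 2i in wild-type cells. It also rose with 2i in Nat1-null cells, by 1.15, where Fgf4 was at -0.18. Beside Gdf3, which differed by -0.52 with Nat1 loss in LIF, Dppa3 fell by 6.68 and Apobec1 rose by 1.06. With Nat1 loss in LIF, 13 neighbours were called, 10 of them in the direction of their member, where 66.8% of all genes were called. With 2i in Nat1-null cells, 7 of the 18 neighbours were called, where 37.1% of all genes were called. Of the 7, 4 lay beside a called member, and 3 of those moved in its direction.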
